A study of Mus musculus with 10 samples.

Results

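Myc and 39 genes of ribosome biogenesis were followed in TNF-treated mouse intestinal organoids, with and without pegtarazimod. The 40 genes were chosen by symbol from known function, and 38 of them were measured under that symbol among 19505 genes, each by 1 probe set. Nop56 and Gnl3 were not measured under a symbol here. Single-colour arrays were hybridised with RNA from small intestine organoids of BALB/c mice, which are self-organising cultures of gut epithelium. In 5 cultures, 20 ng/ml recombinant murine TNF was given together with pegtarazimod at 5 mg/ml. Pegtarazimod is a peptide joined to PEG and is known for blocking the classical complement pathway. The other 5 cultures received the same TNF with 2.625 mM PEG as vehicle, and both groups were harvested after 48 h. TNF was thus common to all cultures, and cultures without it were not analysed here. The dose of pegtarazimod and that of the vehicle are given in different units, and their PEG content could not be set side by side. The samples of a group are described as biological replicates, but the labels do not say what differed between them, so the p-values measure only the spread between these samples.

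MYC is a transcription factor that pairs with MAX and binds the DNA sequence CACGTG, known as the E-box. Among its best known targets are the genes that build ribosomes: RNA polymerase I, the snoRNPs (small RNA-protein particles that guide modification of ribosomal RNA), and the assembly factors of the small and large subunits. In the intestinal crypt, Myc is a target of Wnt signalling, and ribosome production is high in dividing stem and progenitor cells.

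The match of the listed genes to the E-box could be read from promoter sequence without reference to the arrays. A promoter window, 250 bases before to 50 bases after the start site in RefSeq on GRCm38.p6, was at hand for 32 of the 38 measured genes. The motif CACGTG, which reads the same on both strands, was present in the windows of 9 of these 32 (28.1%) and of 1453 of all 15691 tested genes with a window (9.26%). No window was at hand for Myc, Npm1, Rrs1, Bop1, Fbl and Rrp12. The stretches around the 9 matches are shown because they are what these genes share beyond their function. They run 5′ to 3′ on the strand of the gene, with the E-box in capitals, and are ordered by position relative to the start site.
Imp4: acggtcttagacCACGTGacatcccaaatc
Nop2: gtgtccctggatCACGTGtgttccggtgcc
Pes1: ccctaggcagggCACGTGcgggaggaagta
Wdr43: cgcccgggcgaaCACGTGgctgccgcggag
Tsr1: tcacttggtgcaCACGTGgactgcagaatg
Ltv1: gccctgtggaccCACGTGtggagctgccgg
Pno1: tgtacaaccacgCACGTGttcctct
Utp20: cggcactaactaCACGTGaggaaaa
Mybbp1a: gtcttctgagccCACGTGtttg
These lie at chr1:34439696-34439725 (Imp4, plus strand), chr6:125131811-125131840 (Nop2, plus), chr11:3963965-3963994 (Pes1, plus), chr17:71616220-71616249 (Wdr43, plus) and chr11:74898092-74898121 (Tsr1, plus). The others are at chr10:13193092-13193121 (Ltv1, minus strand), chr11:17211540-17211564 (Pno1, minus), chr10:88826765-88826789 (Utp20, minus) and chr11:72441355-72441376 (Mybbp1a, plus). The first base of the motif lay at positions -121 and -60 relative to the start site in Imp4 and Nop2, and between positions 3 and 41 in the other 7. A match describes these letters only, and binding was not measured.

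The values are log2 expression, normalised between arrays by the authors, so that a difference of 1 is a 2-fold difference in signal, and all differences are pegtarazimod minus vehicle. Array medians lay between 5.48 and 5.53. Replicates 1 and 2 stood apart from replicates 3 to 5 within both groups: a component with 33.4% of the variance left after removal of the group means placed pegtarazimod 1 and 2 at -27.57 and -19 and pegtarazimod 3 to 5 between 11.36 and 21.19, and placed vehicle 1 and 2 at -13.49 and -11.99 and vehicle 3 to 5 between 8.2 and 9.02. No label names a batch for this division, which was found in the values. The series lists its samples in an order that follows it: vehicle 1 and 2, pegtarazimod 1 and 2, vehicle 3 to 5, then pegtarazimod 3 to 5. Differences are therefore given over all 10 arrays and within each set of replicates, from a limma model with a spread pooled over all arrays. Since the division came from these same values, p-values that use it are not those of a division fixed beforehand. All 7 epithelial markers (Epcam, Cdh1, Krt8, Krt18, Krt19, Cdx2 and Cldn7) lay above the median of every array. Of 3 endothelial markers, 0 lay above the median on every array, and the mean level of 5 immune markers was 4.59 to 4.94 with pegtarazimod and 4.78 to 5.03 with vehicle. In such bulk RNA, fewer cells of a type and less RNA per cell cannot be told apart.

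Over all 10 arrays none of the 38 genes passed the test, and most had a small negative difference. By limma with Benjamini-Hochberg adjustment over 19505 genes, 0 of 38 had an adjusted p under 0.05, against 4.89% of all genes tested. At an unadjusted p under 0.05, 4 of 38 were called, all lower (Myc, Nolc1, Pno1 and Rrs1), against 19.0% of all genes in either direction. The difference was negative for 31 of the 38 (81.6%) and for 49.3% of all genes, and its median was -0.14 for the 38 and 0.0 for all genes. Single differences ran between -0.58 for Myc and 0.19 for Ltv1. The 95% interval of the difference lay inside -0.5 to 0.5 for 24 of the 38 genes and inside -1 to 1 for 37 of them, all but Myc. Over all genes, 78.6% and 97.1% of the intervals lay within these bounds.

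The 38 genes were lower mainly on 2 of the 5 pegtarazimod arrays. Set against the vehicle mean of each gene, the median deviation of the 38 was -0.51, -0.22, 0.01, 0.07 and -0.03 on pegtarazimod arrays 1 to 5, and -0.07, -0.06, 0.04, 0.04 and 0.05 on vehicle arrays 1 to 5. The median over all genes stayed between -0.01 and 0.01 on every array. On pegtarazimod 1, 35 of the 38 genes lay below their vehicle mean and 28 had their lowest value of all 10 arrays. On pegtarazimod 4, 13 of the 38 lay below it. Without pegtarazimod 1, the median difference of the 38 was -0.06, against -0.14 with all arrays. The median SD of the 38 genes was 0.26 with pegtarazimod and 0.12 with vehicle, and 34 of the 38 (89.5%) had the larger SD with pegtarazimod. Over all genes, the median SDs were 0.18 with pegtarazimod and 0.15 with vehicle, and 61.9% had the larger SD with pegtarazimod.

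**Figure D1:**
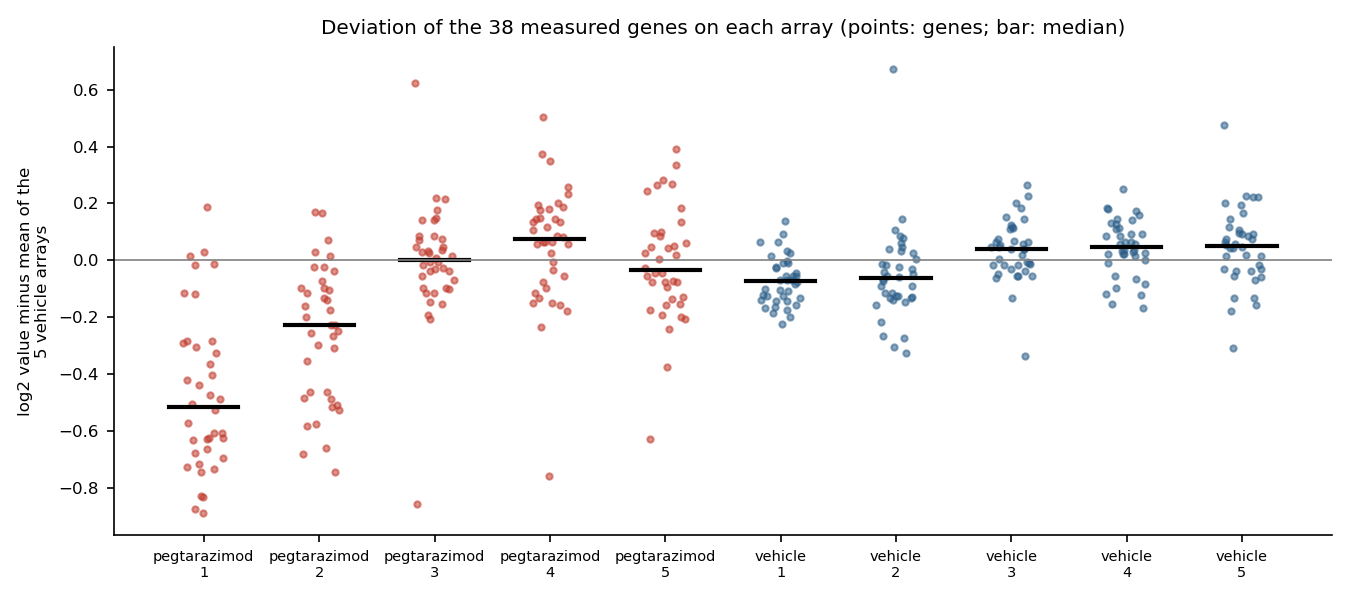
Deviation of each of the 38 measured genes from its vehicle mean (log2, vertical axis) on each array (horizontal axis, pegtarazimod 1 to 5 left of vehicle 1 to 5), with 1 point per gene and the median marked. The median lies at -0.51 and -0.22 on pegtarazimod 1 and 2 and between -0.07 and 0.07 on the other 8 arrays.

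Within replicates 1 and 2, 8 of the 38 genes fell and 0 rose, whereas 3.37% of all genes fell there. They were Ncl, Nolc1, Dkc1, Polr1a, Wdr43, Heatr1, Pno1 and Rrp1b, which act at several steps of the pathway: nucleolar organisation, RNA modification, transcription of ribosomal DNA and assembly of both subunits. The median difference of the 38 was -0.32 within replicates 1 and 2, and 34 were negative (89.5%, against 49.8% of all genes). Within replicates 3 to 5, 0 of 38 were called, against 3.34% of all genes, and the median difference was -0.01, with 23 negative (60.5%, against 49.3% of all genes). At an unadjusted p under 0.05, 16 were called within replicates 1 and 2 (17.8% of all genes in either direction) and 2 within replicates 3 to 5 (15.4% of all genes), all lower. For the difference between the sets, replicates 1 and 2 minus replicates 3 to 5, 0 of 38 passed the limma test (lowest adjusted p = 0.398), against 0.0256% of all genes, so the sets were not shown to differ for any single gene. At an unadjusted p under 0.05, 10 of the 38 passed it, all negative, against 7.65% of all genes in either direction. The median of these differences between the sets was -0.24, and 35 of the 38 were negative, against 51.4% of all genes.

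The count within replicates 1 and 2 rests on few arrays. Leaving out pegtarazimod 1 or 2 or vehicle 1 or 2 leaves 1 array on one side, so no count is given for those fits. The count was 4 without vehicle 3 and 3 without vehicle 4, all among the 8. Of all genes, 5.59% and 5.5% were called there in either direction, against 6.3% with all arrays. Calls were also lost without pegtarazimod 3 (Dkc1 and Wdr43), and Wdr43 lost its call without pegtarazimod 5 or without vehicle 5. Those arrays do not enter the differences within replicates 1 and 2, which could not move from -0.7 for Dkc1 and -0.5 for Wdr43. Only the spread and the adjustment changed, with limma adjusted p = 0.0513 to 0.0545. With pegtarazimod 1 or 2 or vehicle 1 or 2 left out, the differences of the 8 genes lay between -0.85 and -0.36.

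**Figure D2:**
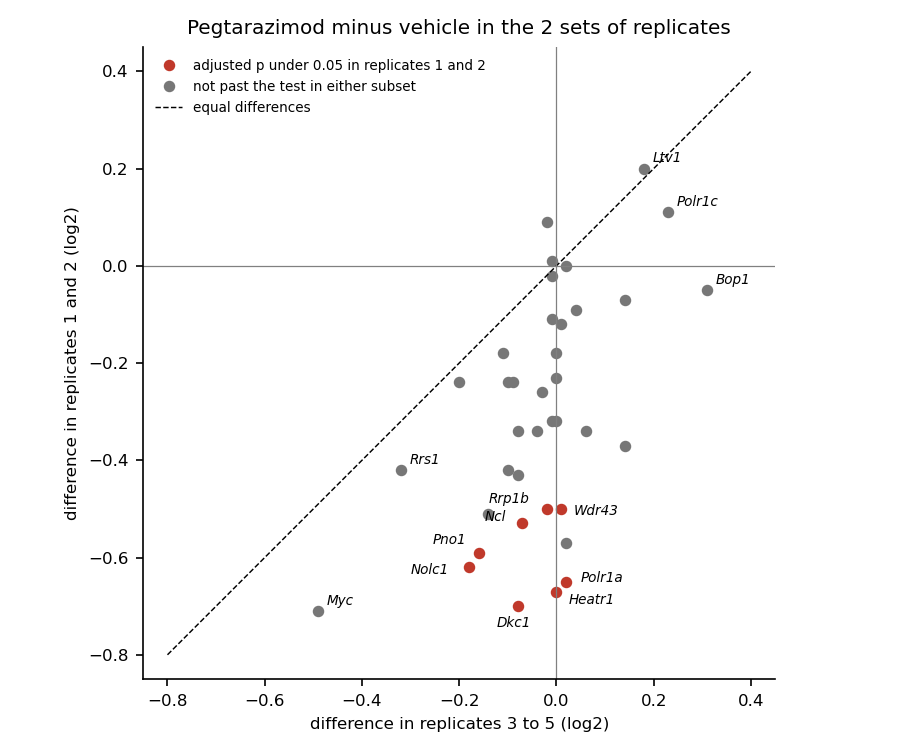
Difference of each of the 38 genes (pegtarazimod minus vehicle, log2) within replicates 1 and 2 (vertical axis) against that within replicates 3 to 5 (horizontal axis), with the line of equal differences. The 8 genes past an adjusted p of 0.05 in replicates 1 and 2 lie between -0.7 and -0.5 on the vertical axis and between -0.18 and 0.02 on the horizontal axis, whereas Myc and Rrs1 are negative on both.

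Myc had the most negative difference of the 38, over all arrays and in both sets of replicates, without passing the test in these comparisons. Its level was 9.3, 10.1, 9.17, 9.27 and 9.4 on pegtarazimod arrays 1 to 5, against 10.12, 10.7, 9.69, 9.91 and 9.72 on vehicle arrays 1 to 5. In each group replicate 2 was the highest array, and pegtarazimod 2 lay above 3 of the 5 vehicle arrays, so that the groups overlapped. Pegtarazimod arrays averaged 9.45 ± 0.37 and vehicle arrays 10.03 ± 0.41 (SD, n = 5 each). The difference was -0.58 ± 0.20 (SE, 95% interval -1.01 to -0.15; limma adjusted p = 0.122). It was -0.71 within replicates 1 and 2 (limma adjusted p = 0.107) and -0.49 within replicates 3 to 5 (limma adjusted p = 0.225). The difference between these, -0.21, had an interval of -0.87 to 0.45. Without pegtarazimod 2 the difference was -0.74 and passed (limma adjusted p = 0.0415). With the set of replicates as a block it was -0.58 and also passed (limma adjusted p = 0.0217). Each pegtarazimod array lay below the vehicle array of the same number, though the numbers are not known to pair the cultures. By level, the lowest array for Myc was pegtarazimod 3, where the median deviation of the 38 genes was 0.01. The vehicle level of Myc also differed between the sets, at 10.12 and 10.7 on vehicle 1 and 2 and 9.69 to 9.91 on vehicle 3 to 5. The lowest level therefore does not show where Myc lay furthest below the vehicle arrays of its own set. Pegtarazimod 1, at 9.3, stood against 10.12 and 10.7 there.

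**Figure D3:**
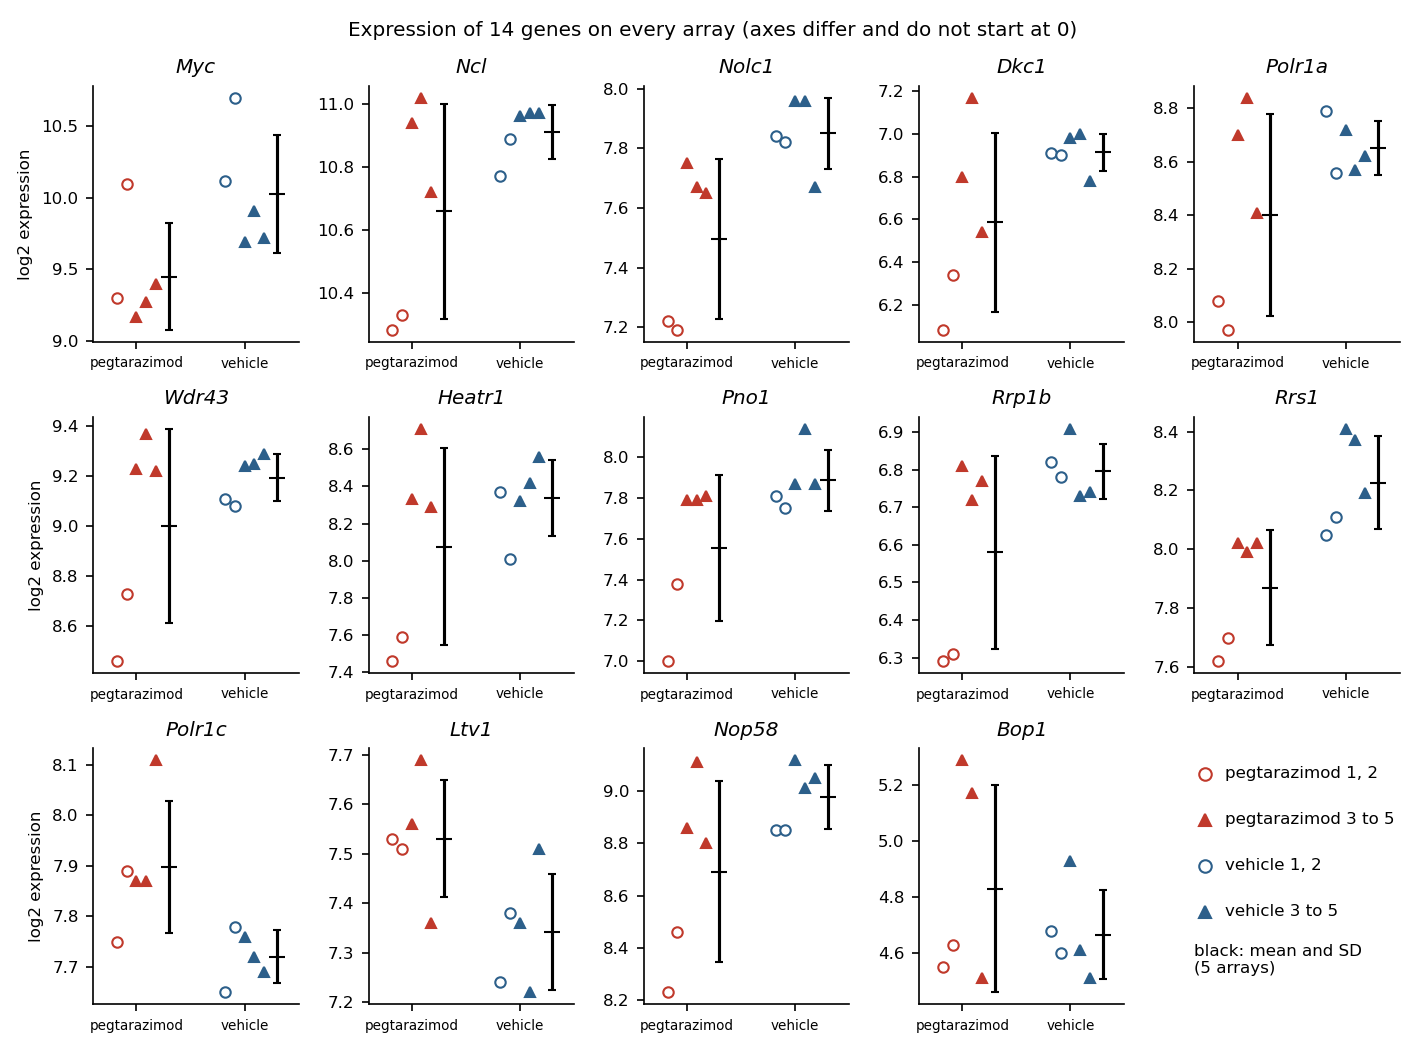
Expression (log2, vertical axes) of the 14 genes given array by array, with pegtarazimod left of vehicle, 1 point per array, replicates 1 and 2 marked apart from replicates 3 to 5, and black bars for the mean and SD (n = 5 each). The groups overlap in every gene but Rrs1, whose highest pegtarazimod array is 8.02 and whose lowest vehicle array is 8.05.

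Among the abundant nucleolar proteins, Ncl and Nolc1 fell within replicates 1 and 2. Ncl encodes nucleolin, an RNA-binding protein of the nucleolus that acts in ribosomal RNA transcription and processing. Ncl was 10.28, 10.33, 10.94, 11.02 and 10.72 on pegtarazimod arrays 1 to 5 and 10.77, 10.89, 10.96, 10.97 and 10.97 on vehicle arrays 1 to 5. Pegtarazimod 1 and 2 lay below every vehicle array, and pegtarazimod 4 above every one. The difference over all arrays was -0.25 ± 0.14 (SE, limma adjusted p = 0.359). It was -0.53 within replicates 1 and 2 (limma adjusted p = 0.0367) and -0.07 within replicates 3 to 5.

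Nolc1 encodes a nucleolar phosphoprotein that chaperones snoRNPs. Its level was 7.22, 7.19, 7.75, 7.67 and 7.65 on pegtarazimod arrays 1 to 5 and 7.84, 7.82, 7.96, 7.96 and 7.67 on vehicle arrays 1 to 5. All pegtarazimod arrays but one lay at or below the lowest vehicle array, vehicle 5, and the exception was pegtarazimod 3. The difference was -0.35 ± 0.12 (SE, limma adjusted p = 0.123) over all arrays, -0.62 within replicates 1 and 2 (limma adjusted p = 0.0164) and -0.18 within replicates 3 to 5. Npm1, which encodes the nucleolar chaperone nucleophosmin, differed by -0.15 and by -0.24 within replicates 1 and 2, with no call.

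Of the box C/D snoRNP genes, which guide methylation of ribosomal RNA, neither Fbl nor Nop58 passed the test in any comparison outside the processing alternatives. Nop58, a core protein of these particles, was 8.23, 8.46, 8.86, 9.11 and 8.8 on pegtarazimod arrays 1 to 5 and 8.85, 8.85, 9.12, 9.01 and 9.05 on vehicle arrays 1 to 5. Pegtarazimod 1 and 2 were the lowest arrays, and pegtarazimod 4 was above all vehicle arrays but vehicle 3. The difference was -0.29 ± 0.14 (SE, limma adjusted p = 0.316) over all arrays and -0.51 within replicates 1 and 2 (limma adjusted p = 0.0555). Fbl, which encodes the methyltransferase fibrillarin, differed by -0.12 over all arrays.

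Among the box H/ACA snoRNP genes, which direct pseudouridine formation, Dkc1 fell within replicates 1 and 2. Dkc1 encodes the pseudouridine synthase dyskerin. It was 6.08, 6.34, 6.8, 7.17 and 6.54 on pegtarazimod arrays 1 to 5, against 6.91, 6.9, 6.98, 7.0 and 6.78 on vehicle arrays 1 to 5. Pegtarazimod 4 was the highest of all arrays and pegtarazimod 1 the lowest, a spread of SD 0.42 with pegtarazimod and 0.09 with vehicle. The difference was -0.33 ± 0.16 (SE, limma adjusted p = 0.305) over all arrays, -0.7 within replicates 1 and 2 (limma adjusted p = 0.0416) and -0.08 within replicates 3 to 5. Without pegtarazimod 4 it was -0.47 over the remaining arrays and passed (limma adjusted p = 0.049). The partner proteins Gar1 and Nhp2 differed by 0.02 and -0.16 and passed in no comparison.

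Of the 5 genes for RNA polymerase I and its regulators, 1 fell within replicates 1 and 2. Polr1a, which encodes the largest subunit of the polymerase, was 8.08, 7.97, 8.7, 8.84 and 8.41 on pegtarazimod arrays 1 to 5 and 8.79, 8.56, 8.72, 8.57 and 8.62 on vehicle arrays 1 to 5. Pegtarazimod 1, 2 and 5 lay below every vehicle array, pegtarazimod 3 among them and pegtarazimod 4 above every one. The difference was -0.25 ± 0.15 (SE, limma adjusted p = 0.419) over all arrays, -0.65 within replicates 1 and 2 (limma adjusted p = 0.0263) and 0.02 within replicates 3 to 5.

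Polr1c, a subunit shared with RNA polymerase III, had a positive difference. It was 7.75, 7.89, 7.87, 7.87 and 8.11 on pegtarazimod arrays 1 to 5, against 7.65, 7.78, 7.76, 7.72 and 7.69 on vehicle arrays 1 to 5. Every pegtarazimod array but pegtarazimod 1 lay above all vehicle arrays. The difference was 0.18 ± 0.09 (SE, limma adjusted p = 0.277). Polr1b, the second-largest subunit, differed by -0.16, the RNA helicase gene Ddx21 by -0.22, and Mybbp1a, which encodes a nucleolar MYB-binding protein, by -0.23. None of them passed the test in any comparison outside the processing alternatives.

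The 8 genes of the small subunit processome, which cuts and folds the precursor of 18S ribosomal RNA, had a median difference of -0.19 over all arrays, of -0.29 within replicates 1 and 2 and of 0.01 within replicates 3 to 5. Wdr43 and Heatr1 were the 2 that fell within replicates 1 and 2. Both encode components that also support transcription by RNA polymerase I. Wdr43 was 8.46, 8.73, 9.23, 9.37 and 9.22 on pegtarazimod arrays 1 to 5 and 9.11, 9.08, 9.24, 9.25 and 9.29 on vehicle arrays 1 to 5. Pegtarazimod 1 and 2 lay below every vehicle array, and the other pegtarazimod arrays among or above them. The difference was -0.19 ± 0.15 (SE, limma adjusted p = 0.572) over all arrays, -0.5 within replicates 1 and 2 (limma adjusted p = 0.0438) and 0.01 within replicates 3 to 5.

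Heatr1 had the widest spread of the 38 genes with pegtarazimod (SD 0.53, against 0.2 with vehicle). It was 7.46, 7.59, 8.33, 8.71 and 8.29 on pegtarazimod arrays 1 to 5 and 8.37, 8.01, 8.32, 8.42 and 8.56 on vehicle arrays 1 to 5. Pegtarazimod 1 and 2 were the lowest of the 10 arrays and pegtarazimod 4 the highest. The difference was -0.26 ± 0.20 (SE, limma adjusted p = 0.559) over all arrays, -0.67 within replicates 1 and 2 (limma adjusted p = 0.0384) and 0.0 within replicates 3 to 5. The other 6 (Wdr75, Utp20, Rrp9, Imp3, Imp4 and Nop14) differed by -0.22 to 0.0 over all arrays, with no call. Of these, Nop14 came nearest to a call within replicates 1 and 2 (-0.57, limma adjusted p = 0.0591).

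Late maturation of the small subunit was represented by 6 genes, of which Pno1 fell within replicates 1 and 2. Pno1 encodes an RNA-binding partner of Nob1, the nuclease that makes the final cut of 18S ribosomal RNA. Its level was 7.0, 7.38, 7.79, 7.79 and 7.81 on pegtarazimod arrays 1 to 5, against 7.81, 7.75, 7.87, 8.14 and 7.87 on vehicle arrays 1 to 5. Pegtarazimod 1 and 2 lay below every vehicle array, and pegtarazimod 3 to 5 at the level of vehicle 1 and 2. The difference was -0.33 ± 0.15 (SE, limma adjusted p = 0.252) over all arrays, -0.59 within replicates 1 and 2 (limma adjusted p = 0.0373) and -0.16 within replicates 3 to 5.

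Ltv1, a small subunit export factor, ran the other way. It was 7.53, 7.51, 7.56, 7.69 and 7.36 on pegtarazimod arrays 1 to 5 and 7.24, 7.38, 7.36, 7.22 and 7.51 on vehicle arrays 1 to 5. The groups overlapped, with vehicle 5 as high as pegtarazimod 2. The difference was 0.19 ± 0.09 (SE, limma adjusted p = 0.296), the most positive of the 38. The assembly factors Rrp12, Bysl and Tsr1 and the nuclease gene Nob1 differed by -0.14 to 0.01 over all arrays.

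The 3 genes of the PeBoW complex, which is needed for the large subunit, passed in no comparison. Bop1 was 4.55, 4.63, 5.29, 5.17 and 4.51 on pegtarazimod arrays 1 to 5 and 4.68, 4.6, 4.93, 4.61 and 4.51 on vehicle arrays 1 to 5. Pegtarazimod 3 and 4 were the highest arrays, and pegtarazimod 1, 2 and 5 lay among the vehicle arrays. All these values lay below the array medians, and since no detection calls were used they cannot be told from background. The difference was 0.17 ± 0.15 (SE, limma adjusted p = 0.643). Pes1 and Wdr12 differed by -0.09 and -0.06.

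Among the other large subunit factors, Rrs1 was the 1 gene of the 38 whose groups did not overlap, a property of 6.71% of all genes. Rrs1 encodes a factor that brings the 5S ribosomal particle into the large subunit. It was 7.62, 7.7, 8.02, 7.99 and 8.02 on pegtarazimod arrays 1 to 5, against 8.05, 8.11, 8.41, 8.37 and 8.19 on vehicle arrays 1 to 5. Replicates 1 and 2 were the lowest arrays of both groups, and the gap between the groups was narrow. Pegtarazimod arrays averaged 7.87 ± 0.19 and vehicle arrays 8.23 ± 0.16 (SD, n = 5 each). The difference was -0.36 ± 0.11 (SE, 95% interval -0.60 to -0.12), and the adjusted p was the lowest of the 38 without passing (limma adjusted p = 0.09). It was of similar size in the 2 sets of replicates, -0.42 in 1 and 2 (limma adjusted p = 0.0816) and -0.32 in 3 to 5 (limma adjusted p = 0.146), and their difference had an interval of -0.46 to 0.26.

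Rrp1b, a nucleolar gene of large subunit assembly, fell within replicates 1 and 2. It was 6.29, 6.31, 6.81, 6.72 and 6.77 on pegtarazimod arrays 1 to 5 and 6.82, 6.78, 6.91, 6.73 and 6.74 on vehicle arrays 1 to 5. Pegtarazimod 1 and 2 lay below all other arrays, and pegtarazimod 3 to 5 among the vehicle arrays or just below them. The difference was -0.21 ± 0.12 (SE, limma adjusted p = 0.355) over all arrays, -0.5 within replicates 1 and 2 (limma adjusted p = 0.0331) and -0.02 within replicates 3 to 5. The other 5 (Nop2, which encodes an RNA methyltransferase of the large subunit, Nop16, Ddx18, Nip7 and Ppan) differed by -0.13 to 0.05.

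**Figure D4:**
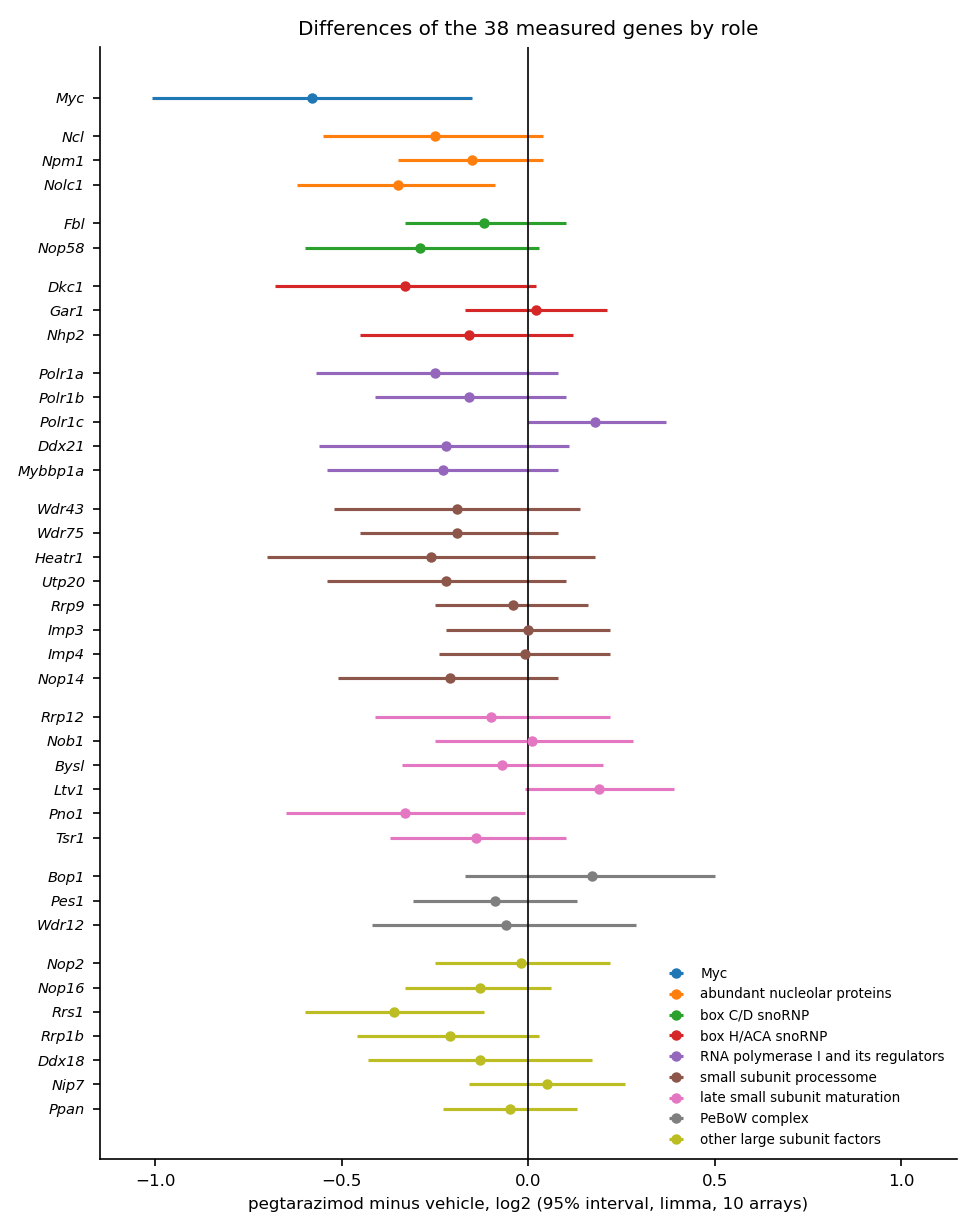
Difference of each of the 38 genes (pegtarazimod minus vehicle, log2, horizontal axis) over all 10 arrays with its 95% interval, grouped by role. The points run between -0.58 for Myc and 0.19 for Ltv1, and none has an adjusted p under 0.05.

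Since replicates 1 and 2 also differed in level from replicates 3 to 5 within both groups, the comparison was repeated with the set of replicates as a block. Then 3 of the 38 genes fell and 0 rose, while 4.83% of all genes fell. They were Myc at -0.58 ± 0.15 (SE, limma adjusted p = 0.0217), Nolc1 at -0.35 ± 0.10 (SE, limma adjusted p = 0.0448) and Rrs1 at -0.36 ± 0.08 (SE, limma adjusted p = 0.013). The block is a division found in the data, which the listing order of the samples also follows but no label names. These calls do not stand over the 10 arrays without it.

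Genes with an E-box in the window had differences close to those of the others. Over all arrays, the median difference was -0.14 for the 9 genes with the motif and -0.16 for the 23 without it. Within replicates 1 and 2 it was -0.24 for those with it and -0.34 for those without it, and 2 of the 9 fell (Wdr43 and Pno1) against 6 of the 23. Of all tested genes with a window, 53 of 1453 with the motif and 487 of 14238 without it fell there. The medians of those genes were -0.01 and 0.0.

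Other genes of the pathway were taken from lists set by known function. Of 101 further ribosome biogenesis genes measured, 2 fell and 0 rose over all arrays, whereas 4.89% of all genes were called in either direction. Their median difference was -0.11, and 88 were negative, against 49.3% of all genes. The 2 that fell were small subunit factors. Ddx47, an RNA helicase gene, was 7.2, 7.27, 7.39, 7.43 and 7.3 on pegtarazimod arrays 1 to 5 and 7.7, 7.73, 7.67, 7.83 and 7.56 on vehicle arrays 1 to 5. The groups did not overlap, and the difference was -0.38 ± 0.09 (SE, limma adjusted p = 0.0238). Wdr3, a processome component, differed by -0.42 ± 0.11 with overlapping groups (SE, limma adjusted p = 0.041). The call of Ddx47 was lost without pegtarazimod 1 or 2 or without vehicle 2, 3 or 4 (highest limma adjusted p = 0.0707). That of Wdr3 was lost without pegtarazimod 1, 2 or 5, without vehicle 1, 3, 4 or 5 (highest limma adjusted p = 0.11), and with median centring (limma adjusted p = 0.0594).

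Of the 11 further RNA polymerase I genes, 10 were negative and 0 passed limma's adjusted test (1 at an unadjusted p under 0.05), with a median of -0.11. Those with the smallest p were Taf1a and Ttf1, at -0.26 each. The 41 further large subunit genes had a median of -0.14, with 0 called (5 at an unadjusted p under 0.05), led by Pelp1 (-0.35, limma adjusted p = 0.135) and Nsa2 (0.25, limma adjusted p = 0.142). The 11 further snoRNP genes had a median of -0.1, with 0 called (3 at an unadjusted p under 0.05), led by Naf1 (-0.34) and Nufip1 (-0.25). Of all genes, 19.0% had an unadjusted p under 0.05. By sets of replicates, the median of the 101 genes was -0.23 within 1 and 2 and -0.06 within 3 to 5. Within 1 and 2, 4 of the 101 fell (Nol6, Bms1, Esf1 and Sdad1), beside 3.37% of all genes.

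In the MYC network, 2 of 13 genes changed, 1 in each direction, where 4.89% of all genes were called. Mycl, which encodes the MYC relative L-MYC, was 6.5, 6.81, 6.54, 6.38 and 6.67 on pegtarazimod arrays 1 to 5 and 7.3, 7.1, 7.05, 7.36 and 7.64 on vehicle arrays 1 to 5. The groups did not overlap, and Mycl fell by 0.71 on the log2 scale (SE 0.12, limma adjusted p = 0.00518). It differed by -0.54 within replicates 1 and 2 (limma adjusted p = 0.13) and by -0.82 within replicates 3 to 5 (limma adjusted p = 0.0103). Mlx, which encodes the dimerisation partner of the glucose-responsive factors MondoA and ChREBP, was 8.98, 9.07, 8.81, 8.79 and 9.0 on pegtarazimod arrays 1 to 5 and 8.38, 8.55, 8.34, 8.27 and 8.54 on vehicle arrays 1 to 5. Here too the groups did not overlap, and the difference was 0.51 ± 0.09 (SE, limma adjusted p = 0.00726). Mlx passed in both sets of replicates (limma adjusted p = 0.0346 in 1 and 2, adjusted p = 0.0411 in 3 to 5).

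Ribosomal protein genes, whose products join the ribosomal RNA in the finished subunits, had mostly positive differences, without a call. Of 79 listed, 56 were measured under a symbol. Of these, 0 passed limma's adjusted test, and 8 had an unadjusted p under 0.05, against 19.0% of all genes. The difference was positive for 55. Its median was 0.14 over all arrays, 0.19 within replicates 1 and 2 and 0.13 within replicates 3 to 5. Rps13 (0.27, limma adjusted p = 0.0801) and Rps20 (0.24, limma adjusted p = 0.0964) came nearest, and in both the groups did not overlap. Many of these genes have near-identical processed copies in the mouse genome, so probes may take up signal from more than 1 locus. Of 26 other known MYC targets, 0 passed, and 7 had an unadjusted p under 0.05, against 19.0% of all genes. Their median was -0.19, and 19 were negative. Tfrc, the transferrin receptor gene (-0.32, limma adjusted p = 0.0938), and Eif4e, a translation initiation factor gene (-0.25, limma adjusted p = 0.119), came nearest.

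**Figure D5:**
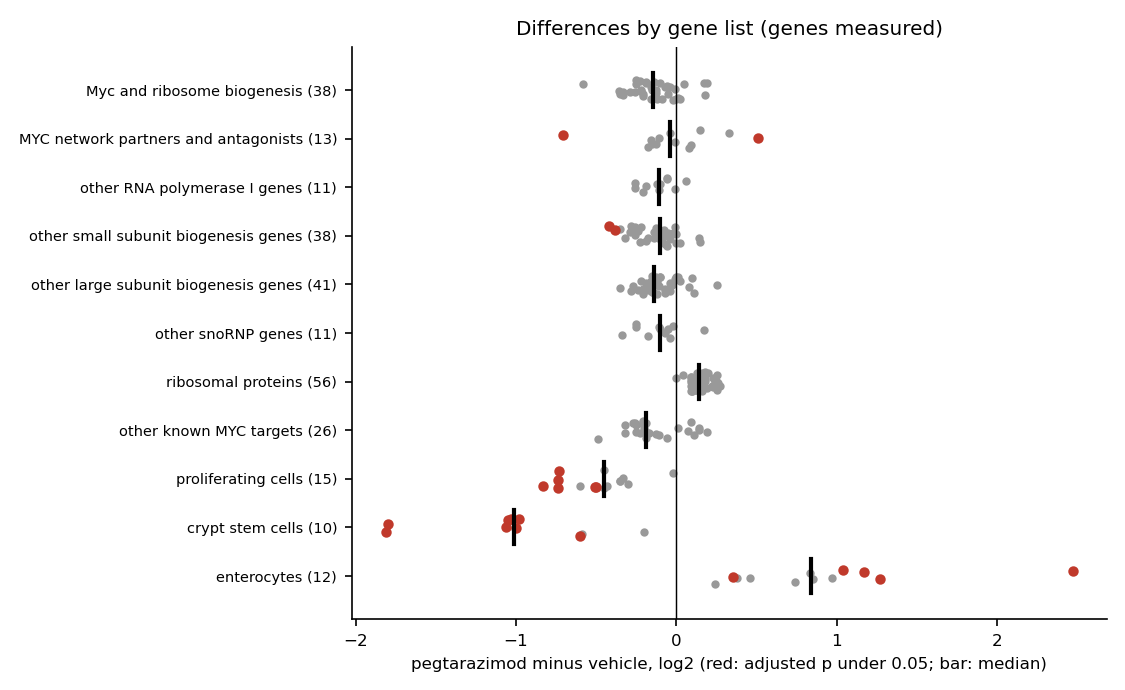
Differences (pegtarazimod minus vehicle, log2) of Myc and the ribosome biogenesis genes, of the other pathway lists and of the cell markers, with 1 point per gene, red for an adjusted p under 0.05, and the median of each list marked. The medians are -0.14 for the 38 genes, 0.14 for ribosomal proteins, -0.45 for proliferation markers, -1.02 for crypt stem cell markers and 0.84 for enterocyte markers.

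Markers of dividing, stem and differentiated cells moved with the groups. Of all genes, 4.89% were called over all arrays, 6.3% within replicates 1 and 2 and 3.34% within replicates 3 to 5, in either direction. Of 15 proliferation markers, 6 fell over all arrays with a median of -0.45, and their mean level was 8.08 to 8.85 on pegtarazimod arrays and 9.0 to 9.2 on vehicle arrays. Within replicates 1 and 2, 11 of the 15 fell (median -0.72), and within replicates 3 to 5, 3 fell (median -0.34). Of 10 crypt stem cell markers 8 fell, with a median of -1.02 and a mean level of 7.55 to 8.25 with pegtarazimod and 8.94 to 9.23 with vehicle. The stem cell markers that fell numbered 8 in each set of replicates. Of 12 enterocyte markers 5 rose (11 within replicates 1 and 2, 4 within replicates 3 to 5), with a median of 0.84 and a mean level of 8.91 to 9.89 with pegtarazimod and 8.09 to 8.65 with vehicle. Of 9 Paneth and goblet cell markers, 5 rose and 1 fell over all arrays, and the 2 cell types ran opposite ways. The 5 that rose were goblet cell markers (Muc2, Tff3, Clca1, Fcgbp and Zg16), and the goblet marker Spdef differed by 0.26 without a call. The Paneth cell markers Lyz1, Mmp7 and Ang4 were all negative (-0.54, -1.11 and -1.39), and Ang4 was the 1 that fell. Within replicates 1 and 2, Mmp7 and Ang4 fell, and within replicates 3 to 5 all 3 fell. The part of these cell types in the differences of Myc and the ribosome biogenesis genes was not tested. Of 6 mesenchyme markers 1 rose (Vim, 0.63), and the mean level of the list was 4.68 to 5.11 with pegtarazimod and 4.61 to 4.86 with vehicle.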

How the data were processed

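RNA from 10 organoid cultures was measured on 10 whole-transcript arrays. Each probe set has a deposited log2 expression value, which the authors made with oligo and RMA, per the submitters' processing notes. RMA corrects background, normalises between arrays by quantiles and summarises probes, so a shift common to most genes would not show. Of 22203 probe sets, 19572 had 1 gene symbol in a dated platform annotation and gave 19505 genes. The 2631 unnamed probe sets were left out, and for 55 genes the probe set with the highest mean was taken.

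The R package limma (version 3.58.1, R 4.3.3) was used for all tests, which were two-sided. The model over all arrays had no covariates except where a block is named. Adjustment was by Benjamini-Hochberg over all 19505 genes at a threshold of 0.05. A second model with 4 groups gave the differences within replicates 1 and 2 and within replicates 3 to 5. The number of arrays limits the precision. The genes, the lists and the division of replicates were chosen with earlier results of these data known. Array values are given for Myc, for every listed gene past the threshold over all arrays, within either set of replicates or for their difference (alternatives not counted), for the 10 with the smallest p over all arrays and for the best of any role left without one. Of other pathway lists, genes past the threshold and those with the 2 smallest p are named. No array was a copy of another: pairs of arrays correlated by 0.983 to 0.992 within pegtarazimod, by 0.989 to 0.994 within vehicle and by 0.973 to 0.991 across the groups, and no pair shared more than 2 identical values.

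Promoter windows are from RefSeq on GRCm38.p6. The fit was tested on simulated data. Alternatives were quantile normalisation, median centring, leaving out the dimmest 25% or 50% of genes, array weights, robust priors with an intensity trend, blocks for the replicate number or the set of replicates, the mean over probe sets, and leaving out each array in turn. Plots were made in matplotlib 3.10.9 under Python 3.11.15.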

Additional observations from a re-analysis of the deposited data

Results flagged for a closer look

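Of 76 groups of 5 arrays (38 genes in each treatment), 3 held an array whose gap to the nearest other array, divided by the range of the group, was above Dixon's critical value of 0.71, a rate that chance alone gives for about 5% of groups. Myc was 10.1 on pegtarazimod 2 and 9.17 to 9.4 on the other pegtarazimod arrays (gap over range 0.76). Vehicle 2 was likewise the highest vehicle array for Myc, without passing this criterion. Rrp9 was 7.86 on vehicle 1 and 8.04 to 8.09 on the other vehicle arrays (0.78). Ddx18 was 7.78 on vehicle 2 and 8.1 to 8.14 on the other vehicle arrays (0.89).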

How the results depend on the processing

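Over all arrays, none of the differences of the 14 genes given array by array changed sign under the alternatives run, nor did those of the 8 called genes within replicates 1 and 2. Single differences within replicates 3 to 5 are not given under the alternatives. The median difference of the 38 genes lay between -0.2 and -0.06 under the 19 alternatives, and the median of all genes moved by at most 0.03. The number of the 38 genes called over all arrays was 0, beside 4.89% of all genes in either direction. It became 1 without the dimmest 50% of genes (Rrs1, beside 13.3% of the genes kept). With a replicate block it was 2 (Myc, limma adjusted p = 0.00351, and Rrs1, limma adjusted p = 0.0306), beside 1606 genes in all (8.23%). With the block for the set of replicates it was 3, beside 9.33% of all genes. It lay between 0 and 1 with each array left out in turn, beside 2.24% to 6.38% of all genes. Replicate numbers did not meet the criterion for pairing, a correlation above 0.1 between the deviations of every 2 same-numbered arrays. These correlations ran from 0.099 to 0.31, and only replicate 3 (0.099) fell narrowly short. Of the 5 pegtarazimod arrays, 4 correlated best with their own number. Whether the numbers pair the cultures thus stays unsettled. The number called within replicates 1 and 2 was 8, beside 6.3% of all genes in either direction. It became 5 with median centring (5.95% of all genes) and 13 without the dimmest 50% of genes (18.3% of the genes kept). It was 4 with array weights (5.47% of all genes) and 12 with the intensity trend and robust priors (9.46%). Beyond the 8, Nop58, Nop14, Mybbp1a and Rrs1 were in the counts of 12 and 13, and Myc in that of 13. With an array of replicates 3 to 5 left out, the number called within replicates 1 and 2 lay between 3 and 9, beside 5.5% to 6.29% of all genes. Within replicates 3 to 5, and for the difference between the sets, it was 0 under every alternative that was run. The number of other pathway genes called was 4 of 196, beside 4.89% of all genes. It became 7 without the dimmest 50% of genes (13.3% of the genes kept were called) and 7 with the intensity trend (5.77% of all genes). With arrays left out it lay between 2 and 6, being 2 without pegtarazimod 1, pegtarazimod 2, vehicle 3 or vehicle 4. The share of all genes called lay between 2.24% and 6.38% there. The number of the 38 genes with separate groups was 1, beside 6.71% of all genes. It was 0 with quantile normalisation, 2 with median centring and 1 to 2 with arrays left out. Leaving an array out can only keep or raise this number, and the shares of all genes under these alternatives are not given. Mycl and Mlx passed under all 19 alternatives. The causes of these shifts were not tested. The arrays carry no detection calls, so differences of dim genes such as Bop1 may be understated.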
